A study of Mus musculus with 8 samples.

Results

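Homeostatic2 is one of 5 cluster names that the deposited cell table gives to microglia of aged *Rag1*-/- brains. It held 2598 of the 7430 named *Rag1*-/- microglia, and UMI counts were at hand for 2597 of them, among 20905 *Rag1*-/- cells of all types. The cells were chosen by this name and by their library alone, and counts of unique molecular identifiers (UMIs) were summed per library. The libraries came from 4 droplet (10×) preparations of male mice aged 24 months, homozygous for a targeted *Rag1* allele, which lack mature T and B cells. The strain is NOD.129S7(B6)-Rag-1tm1Mom/J in the labels and B6.129S7-Rag1tm1Mom/J in the methods of the study. One library was made from gray matter of the frontal cortex, and 3 from white matter (optic tract, medial lemniscus and corpus callosum). All 4 were dissociated with actinomycin D, a blocker of transcription, and sorted for live cells, with no selection on a microglial marker. Gray matter library 1 and white matter library 1 are labelled batch 1 and share a pool of mice, whereas white matter libraries 2 and 3 are labelled batch 2. The labels state that tissue samples were combined in a library, so the spread between libraries is not purely that between mice. No wild-type group enters, so nothing below bears on what the loss of lymphocytes does.

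Microglia are the resident macrophages of the brain parenchyma. In the undisturbed state they depend on CSF1 receptor and TGF-beta signals, and they carry the purinergic receptor P2RY12, the fractalkine receptor CX3CR1 and the surface protein TMEM119. Around degenerating myelin or amyloid they lower these genes and raise genes of lipid handling, phagocytosis and lysosomes, such as *Apoe*, *Lpl* and *Cst7*. Such states are named disease-associated or, in aged white matter, white matter-associated microglia (WAM).

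The targeted gene was counted at low levels. Homeostatic2 sums held 0, 13, 3 and 5 *Rag1* UMIs in gray matter library 1 and white matter libraries 1 to 3. These 3′ tags need not lie in the deleted part, so they check neither the allele nor the labels. Homeostatic2 sums came to 123583 UMIs for gray matter and to 11433436, 1671296 and 2691685 UMIs for white matter libraries 1 to 3. In gray matter 1 UMI was therefore worth 8.09 CPM (counts scaled to a sum of 1000000), and 3 UMIs, taken as the floor of detection, were worth 24.3 CPM. Median UMIs per Homeostatic2 cell were 3914 for gray matter and 5632.5, 6891 and 5458 for white matter. No cell barcode of Homeostatic2 was shared between libraries.

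The cells were checked for microglial markers. *P2ry12* reached 1902 CPM in gray matter and 1414, 1439 and 1401 CPM in white matter Homeostatic2 cells. *Tmem119* reached 850 CPM in gray and 751, 676 and 696 CPM in white matter. *Cx3cr1* reached 2597 CPM in gray and 2770, 4209 and 3865 CPM in white matter. All 3 markers were thus present in every library, and each was lower than in Homeostatic1 of the same library. In WAM *P2ry12*, *Tmem119* and *Cx3cr1* stood at 1800, 897 and 2928 CPM in gray matter. In white matter WAM they stood at 509 to 558, 252 to 305 and 1903 to 2485 CPM. Their presence thus marks microglia and does not test the name Homeostatic2. Free RNA can give UMIs to cells that do not express a gene, and oligodendrocytes of the same libraries, which should lack these genes, held 4.62 to 15.9 CPM of *P2ry12* and 7.55 to 24.5 CPM of *Cx3cr1*. After each cell was thinned to 1000 UMIs, 80.8% of Homeostatic2 cells had a *P2ry12* UMI in gray matter and 65.9% to 72.2% in white matter, against 0.399% to 1.42% of oligodendrocytes. Before thinning the *P2ry12* shares were 93.1% in gray and 90.8% to 97.5% in white matter, at median depths of 3914 and 5458 to 6891 UMIs, and those of oligodendrocytes were 5.50% to 13.1% at 8669 to 12534.5 UMIs. Thinning left out 3 gray matter Homeostatic2 cells and 9, 8 and 37 white matter ones with fewer UMIs.

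The first comparison was that of shares between the tissues. Homeostatic2 cells were scarce in gray matter and made up a large part of white matter microglia. In gray matter they were 29 of 1732 microglia (1.67%, exact Clopper-Pearson 95% confidence interval 1.12–2.40%). In white matter library 1 they were 1884 of 3617 (52.1%, 50.4–53.7%), in library 2 226 of 712 (31.7%, 28.3–35.3%) and in library 3 459 of 1369 (33.5%, 31.0–36.1%). The intervals cover counting error alone. The white matter mean was 39.1% ± 11.3 (SD, n = 3 libraries), 23.4 times the gray matter share, and the groups did not overlap. Within batch 1, whose tissues share a pool of mice, the share in white matter was 31.1 times that in gray matter. Homeostatic1, the other cluster with homeostatic genes, made up 94.3% of gray matter microglia and 21.7%, 34.8% and 42.1% of white matter microglia.

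**Figure D1:**
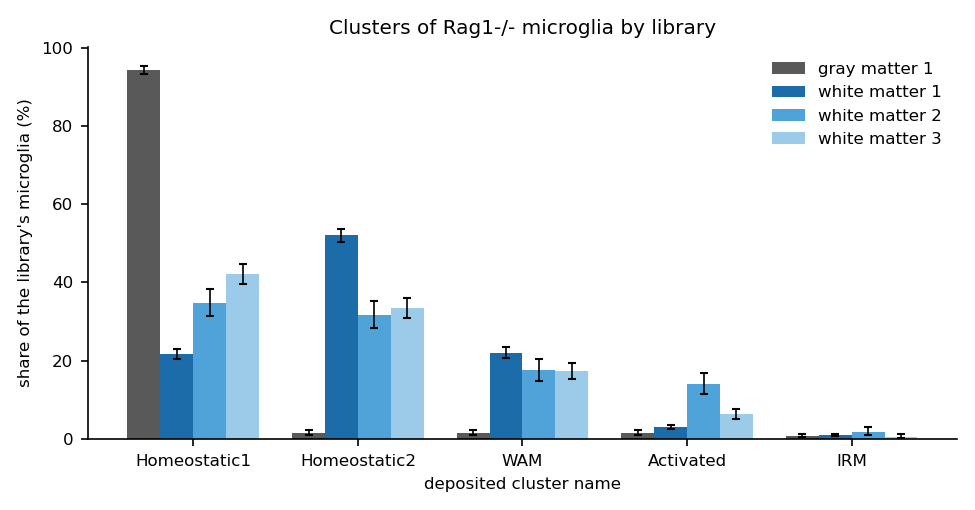
Share of each deposited cluster among the named microglia of a library, in percent, for 1 gray matter and 3 white matter *Rag1*-/- libraries, with exact 95% intervals of counting error. The Homeostatic2 bars stand at 1.67% in gray matter and at 31.7% to 52.1% in white matter, while the Homeostatic1 bar of gray matter reaches 94.3%.

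On cell numbers, the quasi-likelihood test of edgeR put the Homeostatic2 share 4.54 higher in white matter on the log2 scale (SE 0.971, adjusted p = 0.00434 over 5 clusters). The share was higher in 3 of 3 white matter libraries. The exact two-sided permutation test over the 4 libraries gave p = 0.25, the smallest that 1 library against 3 allows. The call was lost with all cells of a library as its size (log2 fold change 4.10, adjusted p = 0.0564) and without white matter library 3 (4.64, adjusted p = 0.0647), and TMM scaling of the cell numbers lowered the value to 2.33 (adjusted p = 0.0364). Shares of a library sum to 100%, so one cluster cannot gain without another losing, and the test takes the spread of the white matter libraries for the lone gray matter one.

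The second comparison set Homeostatic2 against Homeostatic1 within each library. Both clusters were drawn from the genes of these cells, so the differences between clusters within a library are given as a description without a test. Ratios are on the log2((CPM + 1)/(CPM + 1)) scale, which understates those of low genes. Of 6699 genes with a mean of at least 20 CPM in either cluster, 81 (1.21%) were at least 1.5-fold higher in Homeostatic2 in all 4 libraries and 78 (1.16%) at least 1.5-fold lower. Over the 3 white matter libraries alone, 103 of 6601 genes (1.56%) were higher and 149 (2.26%) lower. By list, described below, genes of disease- and white matter-associated microglia and of the interferon response lay mostly on the higher side, and homeostatic microglia genes on the lower. Of 16 cholesterol and lipid transport genes, 2 were past 1.5-fold higher and 0 lower, 6 lay above and 5 below Homeostatic1 in every library, and the median log2 ratio was 0.09. The free RNA of a library is shared by its clusters, and the summed oligodendrocyte markers were close between them, at 1635 CPM in gray and 1820 to 3690 CPM in white matter Homeostatic2, against 1567 and 1626 to 3860 CPM in Homeostatic1.

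*Apoe*, which encodes the main lipid carrier protein of the brain, reached 1513 CPM in gray matter and 20375, 23694 and 22222 CPM in white matter Homeostatic2 cells. In Homeostatic1 cells it reached 230 CPM in gray and 642, 996 and 841 CPM in white matter. The Homeostatic2 level was thus the higher in every library, and the log2 ratio was 2.71 in gray matter and 4.57 to 4.99 in white matter. *Cxcl13*, a chemokine that attracts B cells, stood at 80.9 CPM in gray and 71.5, 23.9 and 150.5 CPM in white matter Homeostatic2, and at no more than 1.01 CPM in Homeostatic1 of any library. Of the 10 *Cxcl13* UMIs of gray matter Homeostatic2, 1 cell held 9, and of the 22 *Cst7* UMIs described below 1 cell held 10 and 6 cells 21. *Lpl*, which encodes lipoprotein lipase, reached 32.4 CPM in gray and 164, 154 and 185 CPM in white matter, and 2.91 to 20.5 CPM in Homeostatic1. *Cst7*, the lysosomal protease inhibitor cystatin F, reached 178 CPM in gray and 124, 96.3 and 124 CPM in white matter, against 14.9 to 18.8 CPM in Homeostatic1. *Axl*, a receptor kinase for apoptotic cells, reached 40.5 CPM in gray and 98.6, 118 and 89.2 CPM in white matter, against 3.31 to 14.8 CPM. For *Lpl*, *Axl* and *Apoe* the gray matter library was the lowest of the 4. For *Cst7* it was the highest in CPM. Before thinning, 24.1% of gray and 28.3% to 31.2% of white matter cells had a *Cst7* UMI, against 0.0948% to 0.729% of oligodendrocytes. After thinning 1 of 26 gray matter cells had one (3.85%, 95% interval of counting error alone 0.0973–19.6%), against 6.91% to 9.72% in white matter. With 1 gray matter library, the tissues were not ordered by these shares.

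The other genes with the 12 highest median ratios were *Wfdc17*, *Cybb*, *Lilrb4a*, *Itgax*, *Cxcl14*, *Anxa2* and *Pdcd1*. *Cybb* encodes the catalytic subunit of the phagocyte NADPH oxidase, *Itgax* the integrin CD11c and *Lilrb4a* an inhibitory receptor. *Pdcd1*, which encodes the inhibitory receptor PD-1 known from T cells, reached 40.5 CPM in gray and 52.7, 41.9 and 50.9 CPM in white matter Homeostatic2, and 2.71, 12.4, 2.84 and 10.4 CPM in Homeostatic1 of the same libraries. In median these 12 genes were 7.13-fold (*Pdcd1*) to 47.6-fold (*Cxcl13*) higher in Homeostatic2. The size depended on the pseudocount and the depth where Homeostatic1 was near 0. For *Cxcl13* the median log2 ratio was 5.57, but 3.84 with a pseudocount of 5 CPM and 2.14 in cells thinned to 1000 UMIs.

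The 12 genes with the lowest median ratios were *Myo18b*, *Gprasp2*, *Tmem44*, *Hlf*, *Upk1b*, *Tmem204*, *Pde2a*, *Bank1*, *Crybb1*, *Col6a3*, *Pecam1* and *Cd164*. *Crybb1*, a crystallin gene used as a marker of microglial maturation, stood at 299 CPM in gray and 113, 118 and 105 CPM in white matter Homeostatic2, and at 539, 407, 381 and 404 CPM in Homeostatic1. *Upk1b*, a uroplakin gene of the tetraspanin family, stood at 48.6 CPM in gray and 32.3, 40.7 and 33.1 CPM in white matter, against 132 to 188 CPM in Homeostatic1. *Hlf*, a transcription factor of the PAR bZIP family, stood at 16.2 CPM in gray, which is 2 UMIs, and 3.32, 3.59 and 4.46 CPM in white matter, against 23.3 to 40.5 CPM. Both *Upk1b* and *Hlf* were thus lower in Homeostatic2 of each library, *Hlf* at counts in gray matter below the floor. *Gprasp2*, *Tmem44* and *Tmem204* had 0 UMIs in gray matter Homeostatic2, so their gray matter ratios rest on the pseudocount.

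**Figure D2:**
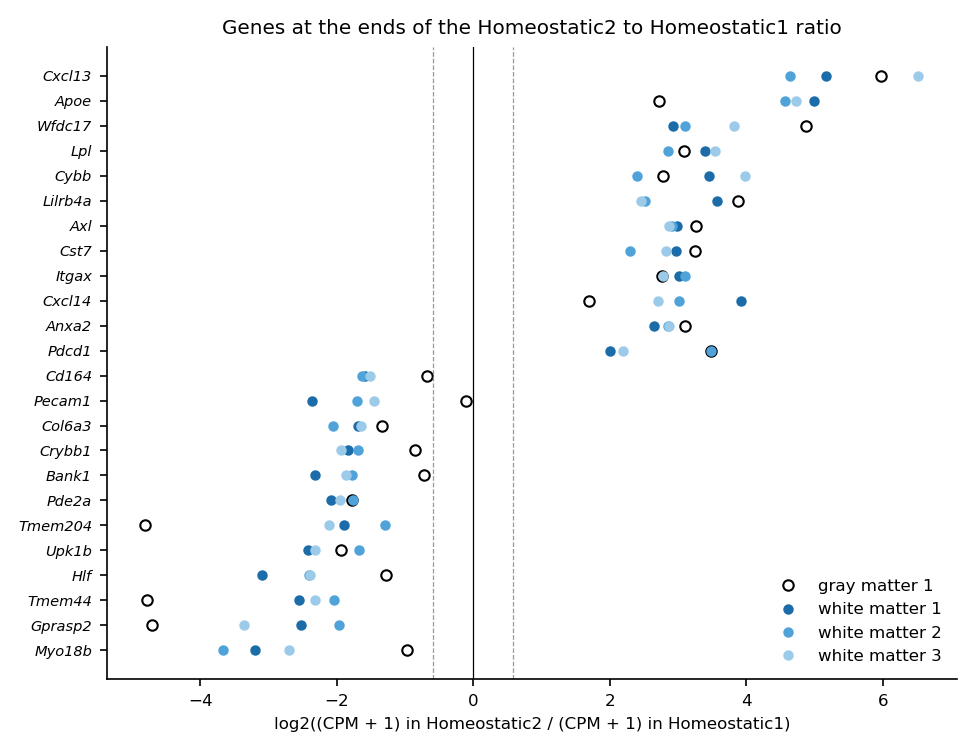
Log2 ratio of Homeostatic2 to Homeostatic1 in each library for the 12 genes with the highest and the 12 with the lowest median, among genes with the same sign in every library. The solid line marks equal levels and the dashed lines 1.5-fold. White matter points of the higher genes lie above 2 on this scale, and 5 gray matter points of the lower genes (*Pecam1*, *Cd164*, *Bank1*, *Crybb1* and *Myo18b*) lie within 1 of equality.

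Of 29 homeostatic microglia genes, 8 were at least 1.5-fold lower in Homeostatic2 than in Homeostatic1 in all 4 libraries, 0 were higher, and 28 lay below Homeostatic1 in every library, as did 2629 of all 6699 genes. Their median log2 ratio was −0.52, against −0.20 for all 6699 genes. *P2ry12* had a log2 ratio of −0.80 in gray and −1.06 to −1.20 in white matter, *Sall1*, a transcription factor of microglial identity, −0.73 and −0.57 to −0.89, and *P2ry13*, a nucleotide receptor, −1.09 and −0.70 to −0.92. Related lists had medians of −0.37 for 16 TGF-beta pathway genes (2 lower past 1.5-fold), −0.44 for 20 synapse and adhesion genes (0 past 1.5-fold in either direction) and −0.30 for 21 microglial transcription factors (1 higher). In the white matter libraries alone, 1 synapse and adhesion gene was past 1.5-fold higher and 5 lower, and 1 transcription factor higher and 2 lower.

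Genes of disease- and white matter-associated microglia lay on the other side. Of the 28 of this list above the minimum, 13 were past 1.5-fold higher in Homeostatic2, 0 lower, and 25 lay above Homeostatic1 in every library, with a median of 0.79. Of all 6699 genes, 546 lay above Homeostatic1 in every library. A gene of any list that met the minimum through Homeostatic2 alone, as *Axl*, *Lpl*, *Cst7* and *Itgax* did, could not be counted as lower. *Lyz2*, which encodes lysozyme, reached 1028 CPM in gray and 1720, 1668 and 1712 CPM in white matter Homeostatic2, and 366 to 492 CPM in Homeostatic1. *Ctsb*, a lysosomal cathepsin, reached 2201 CPM in gray and 2304, 2080 and 2114 CPM in white matter, against 1521 to 1551 CPM. *Trem2*, the lipid-sensing receptor on which the later steps of this state depend, differed little, with 2686 CPM in gray and 2553 to 2759 CPM in white matter, against 2296 to 2572 CPM. Of 38 lysosome genes 0 passed 1.5-fold in either direction in all libraries, with a median of 0.12, and 21 pan-microglial genes had a median of −0.01. In every library 17 of the 38 lysosome genes lay above and 8 below Homeostatic1, against 546 and 2629 of all 6699 genes. The lysosome sum was 48186 CPM in gray and 48397 to 52505 CPM in white matter Homeostatic2. In Homeostatic1 it was 44345 and 42928 to 45432 CPM. Lysosome genes were thus higher by a small amount in sum, and pan-microglial genes lay on both sides, with 10 above and 8 below in every library.

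Cytosolic ribosomal protein genes were higher by a small amount in nearly the whole list. Of 82, 79 lay above Homeostatic1 in every library and 4 were past 1.5-fold, with a median of 0.47. Their summed level was 137883 CPM in gray and 149670, 165447 and 165473 CPM in white matter Homeostatic2, and 99588, 104865, 120194 and 117717 CPM in Homeostatic1.

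Genes of the type I interferon response lay mostly higher, and those of MHC class I presentation on both sides. Of 19 interferon genes above the minimum, 6 were past 1.5-fold higher, 0 lower and 15 above Homeostatic1 in every library, with a median of 0.73. *Ifitm3*, an inhibitor of virus entry, reached 227 CPM in gray and 112, 186 and 99.2 CPM in white matter Homeostatic2, against 21.4 to 42.6 CPM in Homeostatic1. *Bst2*, which tethers virus particles to the cell, reached 388 CPM in gray and 204, 347 and 223 CPM in white matter, against 126 to 189 CPM. Among 20 MHC class I genes 6 were past 1.5-fold higher and 0 lower, 12 lay above and 5 below Homeostatic1 in every library, and the median was 0.29. *B2m*, the light chain of MHC class I, reached 2015 CPM in gray and 2279, 3552 and 3060 CPM in white matter, against 1245, 1248, 2215 and 1904 CPM. *H2-D1*, a heavy chain, reached 1262 CPM in gray and 1249, 1414 and 1191 CPM in white matter, against 482 to 712 CPM. Reads of MHC class I genes can be split between near-identical copies.

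The promoters of 3 genes, *B2m* of the MHC class I list and *Ctss* and *Ctsd* of the lysosome list, are shown as examples that hold an interferon or a lysosomal motif. Each is the 250 bases before the RefSeq start in GRCm38.p6, written 5′ to 3′ on the strand of the gene, with the motif in capitals. *B2m* (chr2:122147437-122147686, plus strand) and the cathepsin gene *Ctss* (chr3:95526536-95526785, plus strand) hold the interferon-stimulated response element, searched as GAAA, any 2 bases and GAAA again, and the cathepsin gene *Ctsd* (chr7:142387828-142388077, minus strand) holds the lysosomal E-box TCACGTGA.
B2m: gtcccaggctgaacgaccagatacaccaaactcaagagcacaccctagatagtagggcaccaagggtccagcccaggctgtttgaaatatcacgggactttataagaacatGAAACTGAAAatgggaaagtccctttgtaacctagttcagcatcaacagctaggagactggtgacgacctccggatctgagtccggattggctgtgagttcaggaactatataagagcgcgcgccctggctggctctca
Ctss: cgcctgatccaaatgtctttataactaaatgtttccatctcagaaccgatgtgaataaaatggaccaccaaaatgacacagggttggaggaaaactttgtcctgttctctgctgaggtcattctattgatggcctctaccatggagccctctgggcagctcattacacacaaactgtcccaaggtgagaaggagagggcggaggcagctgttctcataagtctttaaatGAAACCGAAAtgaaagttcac
Ctsd: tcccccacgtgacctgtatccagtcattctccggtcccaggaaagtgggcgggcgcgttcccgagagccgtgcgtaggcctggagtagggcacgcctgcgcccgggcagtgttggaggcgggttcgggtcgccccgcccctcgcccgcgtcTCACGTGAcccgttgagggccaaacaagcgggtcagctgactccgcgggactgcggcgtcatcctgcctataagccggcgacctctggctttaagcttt
Both strands were searched, and the letters of the 2 motifs do not overlap. The interferon motif was found in 978 of 32851 promoters of this length (2.98%), in 14 of 26 matched interferon genes, 3 of 19 MHC class I genes and 2 of 32 lysosome genes. TCACGTGA was found in 258 promoters (0.785%), in 5 of 32 lysosome genes, 0 of 26 interferon genes and 1 of 19 MHC class I genes. A match describes the letters and is not a site of binding.

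The third comparison placed Homeostatic2 against the activated clusters of the same library. In white matter it lay between Homeostatic1 and WAM for most genes of the homeostatic and disease-associated lists. Against WAM, 86 of 6489 genes (1.33%) were past 1.5-fold higher in Homeostatic2 in all 4 libraries and 95 (1.46%) lower. Over the 3 white matter libraries alone, 312 of 6251 (4.99%) were higher and 192 (3.07%) lower. Of 29 homeostatic genes, 28 fell in the order Homeostatic1, Homeostatic2, WAM from high to low in all 3 white matter libraries. Of 33 disease-associated genes, 30 had the reverse order, and so had 78 of 82 ribosomal protein genes. Over all 6761 genes, Homeostatic2 lay between the other clusters in all 3 libraries for 40.8%. Of these, 2233 genes fell from Homeostatic1 to WAM and 524 rose. Of 19 interferon genes, in contrast, 2 lay between and 10 were higher in Homeostatic2 than in both, as were 150 of all 6761 genes.

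*P2ry12* in WAM stood at 534, 558 and 509 CPM in white matter libraries 1 to 3, below the 1401 to 1439 CPM of Homeostatic2. *Apoe* reached 41763, 42257 and 49592 CPM in white matter WAM, above the 20375 to 23694 CPM of Homeostatic2. In gray matter *Apoe* stood the other way, at 422 CPM in WAM and 1513 CPM in Homeostatic2. *Lpl* reached 1070, 1515 and 1210 CPM in WAM, against 154 to 185 CPM in white matter Homeostatic2. *Spp1*, which encodes osteopontin, reached 2283, 2186 and 2209 CPM in WAM, against 37.5, 14.4 and 50.2 CPM in white matter Homeostatic2 and 0 UMIs in gray. *Gpnmb*, a transmembrane glycoprotein of lipid-laden phagocytes, stood at 35.9 to 45.0 CPM in white matter WAM and at no more than 0.787 CPM in Homeostatic2. *Apoe*, *Lpl*, *Spp1* and *Gpnmb* were thus higher in white matter WAM than in Homeostatic2, and *P2ry12* lower.

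**Figure D3:**
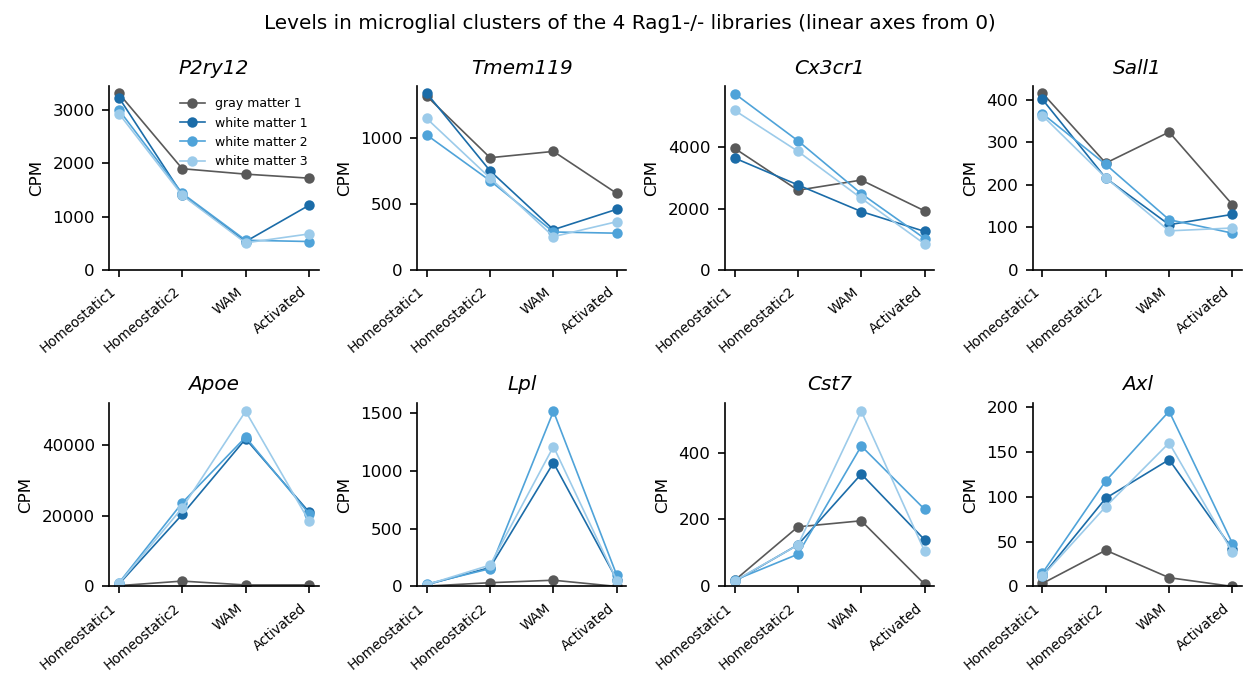
Level in CPM on linear axes of 4 homeostatic genes (top) and 4 disease-associated genes (bottom) in 4 microglial clusters, with 1 point for each of the 4 *Rag1*-/- libraries and lines that join the points of a library. In white matter *P2ry12* falls from Homeostatic1 over Homeostatic2 (1401 to 1439 CPM) to WAM (509 to 558 CPM), and *Apoe* in gray matter stays at or below 1513 CPM in these clusters.

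By median ratio over the libraries, WAM exceeded Homeostatic2 most in *Ccl4* (70.1-fold), *Spp1* (50.6-fold), *H2-Aa* (48.0-fold), *H2-Eb1* (35.5-fold), *Ccl3* (29.3-fold) and *Egr1* (23.6-fold). *Ccl3* and *Ccl4* are chemokines, *H2-Aa* and *H2-Eb1* chains of MHC class II, and *Egr1* an immediate early transcription factor. *Ccl3* stood at 16.2 CPM in gray and 29.5, 32.9 and 32.0 CPM in white matter Homeostatic2, and at 270, 1071, 1039 and 919 CPM in WAM. Homeostatic2 exceeded WAM most in *Tspan18* (3.49-fold), *Slc2a5* (3.33-fold), *Rnase6* (2.95-fold), *Ceacam1* (2.81-fold), *Kcnj9* (2.74-fold) and *Cacnb2* (2.72-fold). *Slc2a5*, the fructose transporter GLUT5 and a marker of resting microglia, reached 131, 155 and 145 CPM in white matter Homeostatic2 and 26.2 to 42.6 CPM in WAM, but 178 and 162 CPM in gray matter.

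In gray matter, the homeostatic genes of WAM (27 cells) stood close to those of Homeostatic2. The summed homeostatic list was 34657 CPM in Homeostatic2 and 35683 CPM in WAM of gray matter, and 32359 to 33006 CPM and 19946 to 21139 CPM in white matter. In Homeostatic1 the sum was 46614 CPM in gray and 45016 to 45904 CPM in white matter. The gray matter sum lay above all white matter sums in Homeostatic2 by a small margin and in WAM by a wide one, and neither difference was tested.

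The cluster named Activated (27 cells in gray, 112, 100 and 87 in white matter) had a median of 805 to 1392 genes per cell in white matter, against 2222 to 2560 in white matter Homeostatic2. Of 6197 genes, 1012 (16.3%) were past 1.5-fold higher in Homeostatic2 in all 4 libraries and 87 (1.4%) lower, and 1847 of 6094 (30.3%) and 111 (1.82%) in the white matter libraries alone. The median log2 ratio of all genes was 0.62, and 0.65 in white matter alone, so the counts and the ratios below are to be read relative to it. Ribosomal protein genes made up 69 of the 87 that were lower in all 4 libraries, and the list of 82 had a median log2 ratio of −0.87. Other genes higher in Activated were *Cox6a2*, a subunit of cytochrome c oxidase, and *Lgals3*, which encodes galectin-3. In cells thinned to 1000 UMIs, 999 of 6524 genes were higher and 103 lower in all 4 libraries. The interferon-responsive cluster (IRM) could be set against Homeostatic2 in white matter library 1 alone, with 37 cells. Of 6577 genes, 1097 (16.7%) were past 1.5-fold higher in Homeostatic2 and 768 (11.7%) lower. In cells thinned to 1000 UMIs the balance turned, with 2214 of 7607 genes higher and 2465 lower, so no direction is drawn from these counts. *Cxcl10*, a chemokine induced by interferon, stood at 1411 CPM in IRM and 0.437 CPM in Homeostatic2 of this library, and *Ifit3* at 985 and 12.6 CPM. Both genes were higher in IRM.

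**Figure D4:**
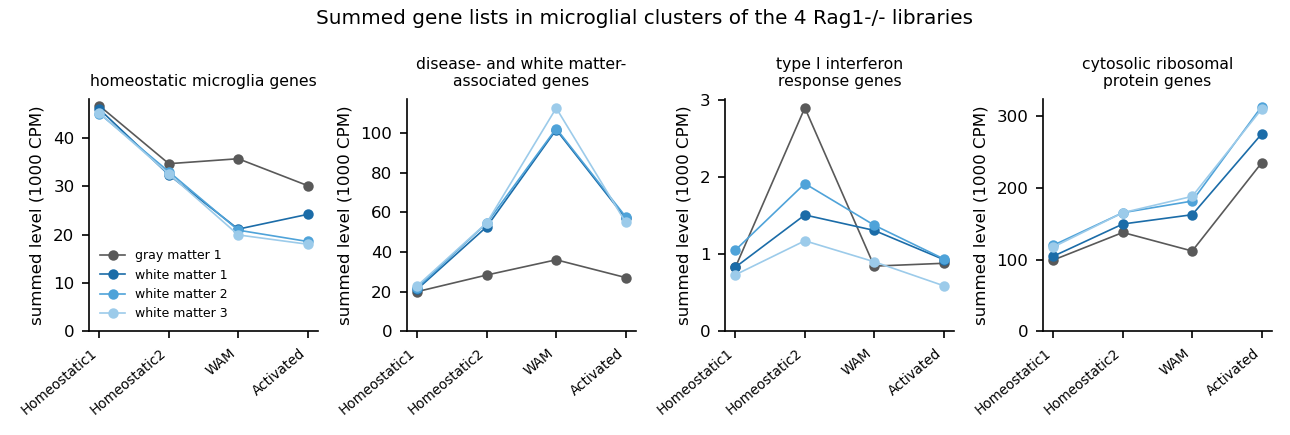
Summed level, in units of 1000 CPM on linear axes, of 4 gene lists in 4 microglial clusters, with 1 point for each library. The disease- and white matter-associated sum of Homeostatic2 is 28451 CPM in gray matter and 52819 to 54799 CPM in white matter. Among the 4 clusters shown, the interferon sum is highest in gray matter Homeostatic2, at 2905 CPM. IRM is not shown, and in its 15 gray matter cells the interferon gene *Bst2* alone stood at 1587 CPM.

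The fourth comparison was that of Homeostatic2 cells between gray and white matter. Of 10726 genes tested in edgeR, 1 (0.00932%), *Apoe*, was higher in white matter at an adjusted p of 0.05, and 0 were lower. DESeq2 called 5 genes, *Apoe* and *Lyz2* as higher and *Hba-a2*, *Prkca* and *Cd209f* as lower, and 849 genes passed at an unadjusted p of 0.05 in edgeR. The number of calls depended on single libraries and was 155 without white matter library 1, 17 without library 2 and 2 without library 3. In Homeostatic1, 5 of 11264 genes (0.0444%) were called, 1 higher (0.00888%) and 4 lower (0.0355%). Among the white matter libraries themselves, batch 2 differed from batch 1 in 529 genes of Homeostatic2 (4.93%), 309 higher (2.88%) and 220 lower (2.05%), so the batches of this tissue stood apart. With a batch term 46 genes were called between the tissues, on 1 residual degree of freedom. The calls between batches came from this same fit, with 1 white matter library in batch 1. They do not measure the spread between libraries of that batch. The gray matter sum rests on 29 cells. On simulated counts of this depth the test of the tissues recovered 61% of genes changed 16-fold and 26% of those changed 4-fold. A difference of a few fold was thus often not detectable.

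*Apoe* rose 17.1-fold in white matter Homeostatic2 (log2 fold change 4.10, SE 0.17, adjusted p = 2.73e-06, edgeR), from 187 UMIs in gray to 232958, 39599 and 59814 UMIs in white matter. The groups did not overlap. The call held without each white matter library and with a batch term. *Apoe* was also called in Homeostatic1, with a log2 fold change of 1.89 (adjusted p = 0.0458). In cells thinned to 1000 UMIs, 30.8% of gray matter Homeostatic2 cells had an *Apoe* UMI (95% interval of counting error alone 14.3–51.8%). In white matter 88.8%, 89.4% and 92.4% had one, and the median cell held 10, 13 and 13 *Apoe* UMIs per 1000. Before thinning these shares were 58.6% and 95.1% to 97.1%. The median white matter WAM cell held 27 to 30 *Apoe* UMIs, and the median Homeostatic1 cell of every library 0. Oligodendrocytes had an *Apoe* UMI in 81.9% of gray and 77.4% to 89.8% of white matter cells after thinning. Homeostatic1 cells of the same libraries had one in 16.7% of gray and 35.2% to 46.9% of white matter cells. The oligodendrocyte share thus lay above the free RNA that the clusters of a library have in common, and is no background level for *Apoe*. The median oligodendrocyte held 2 to 3 *Apoe* UMIs per 1000, below the 10 to 13 of white matter Homeostatic2. The summed *Apoe* level of oligodendrocytes was 2259 CPM in gray and 2007 to 3008 CPM in white matter. That of Homeostatic1 was 230 CPM in gray and 642 to 996 CPM in white matter. The part of free RNA in the *Apoe* difference between the tissues was not tested.

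The gray matter *Apoe* UMIs were spread unevenly. Of the 187, 6 of 29 cells held 167 (89.3%), and 12 cells held 0. *P2ry12* UMIs were found in 27 of the 29 cells, where the 6 highest held 47.2%. One cell with 806 UMIs held all 4 *Cd209f* UMIs, 5 of 6 *Pf4* UMIs, 22 *Apoe* UMIs and 0 UMIs of *P2ry12* and *Tmem119*. *Cd209f* and *Pf4* are markers of macrophages at the brain borders, and the summed border macrophage list was 348 CPM in gray matter Homeostatic2 and 77.8 to 85.6 CPM in white matter. Blood and choroid plexus genes summed to 615 CPM in gray and 123 to 143 CPM in white matter. In Homeostatic1 the blood sums were 769 and 134 to 157 CPM, and with 1 gray matter library its tissue and its preparation cannot be told apart. Their part in the differences between the tissues was not tested.

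Beyond *Apoe*, genes of disease-associated microglia tended to stand lower in gray matter. Of 31 tested, 1 was called and 13 passed at an unadjusted p as higher in white matter, 0 as lower, and their median log2 fold change was 0.66, against 0.17 for all genes. Of all 10726 genes, 601 passed at an unadjusted p as higher and 248 as lower. The gray matter level lay below all 3 white matter libraries in 25 of 31 (80.6%), against 38.8% of all genes tested. Other lists stood lower in gray matter as well. Of 83 ribosomal protein genes, 57 passed at an unadjusted p as higher in white matter, with a median of 0.44 and 73.5% below all white matter libraries, and 14 oligodendrocyte markers had a median of 1.16, with 10 below. The summed oligodendrocyte markers of Homeostatic2 were 1635 CPM in gray matter library 1 and 1820 CPM in white matter library 1, both of batch 1. In white matter libraries 2 and 3, of batch 2, they were 2698.5 and 3690 CPM. Between batch 2 and batch 1 of white matter, the median log2 fold change was 1.40 for these markers and 0.16 for the ribosomal protein genes. The part of both lists and of the batch in the values of the disease-associated list was not tested. On the log2 scale *Lpl* differed by 2.60 (SE 0.45, adjusted p = 0.365), *Axl* 1.55 (SE 0.49, adjusted p = 0.589) and *Lyz2* 0.96 (SE 0.16, adjusted p = 0.365), whereas *Cst7* had −0.39 (SE 0.31, adjusted p = 0.779). *Fabp5*, a fatty acid-binding protein, and *Spp1* had 0 UMIs in gray matter. With the gray matter floor of 3 counts in its place, their white matter means were at least 1.98-fold and 1.40-fold higher. For *Spp1* white matter library 2, at 14.4 CPM, lay below this floor of 24.3 CPM, so the libraries were not separated. Without *Apoe*, the summed list was 26937 CPM in gray and 32444, 30979 and 32577 CPM in white matter Homeostatic2. Of 29 homeostatic genes 0 were called, and their median log2 fold change was 0.09. *P2ry12* had −0.19 (SE 0.14, adjusted p = 0.752) and *Tmem119* −0.04 (SE 0.17, adjusted p = 0.981).

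Interferon genes stood the other way. The summed list was 2905 CPM in gray and 1513, 1921 and 1178 CPM in white matter Homeostatic2, and 835 CPM in gray and 736 to 1057 CPM in white matter Homeostatic1. Of 33 genes tested in Homeostatic2, 0 were called, 6 passed at an unadjusted p as lower in white matter and 0 as higher, against 248 of all 10726 genes as lower, and the median log2 fold change was −0.65. The gray matter level lay above all 3 white matter libraries in 26 of 33 (78.8%), against 44.9% of all genes tested. A low gene could pass the filter of this test through gray matter alone, where 1 UMI was worth 8.09 CPM. Of this list, 19 genes reached a mean of 20 CPM in Homeostatic2 or Homeostatic1. Above all white matter libraries were also 10 of 13 mitochondrially encoded and 17 of 25 actin genes. Their part in the interferon values was not tested. *Ifi27l2a*, an interferon-induced gene of mitochondria, reached 494 CPM in gray and 236, 324 and 122 CPM in white matter Homeostatic2. The gray matter library was the highest of the 4. Its 61 *Ifi27l2a* UMIs came from 12 of the 29 cells, of which 6 held 44 (72.1%) and 1 held 14.

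The last comparison asked whether the white-gray difference of Homeostatic2 differed from that of Homeostatic1 in the same libraries. Of 11444 genes tested with the library as a block, 41 (0.358%) passed at an adjusted p of 0.05, 32 (0.28%) with a higher and 9 (0.0786%) with a lower value in Homeostatic2. With RLE size factors the split was 19 and 10. The median over all genes was 0.23 on the log2 scale, so the values below are to be read relative to it. This test is not independent of the clustering, which used the genes of the same cells. Its gray matter side is 1 library with 29 Homeostatic2 cells, and at a common dispersion of 0.000988 it treats the UMIs of a few cells nearly as separate counts, so the p-values do not measure the spread between gray matter samples. Lysosomal and complement genes were among those with the higher value, besides 8 ribosomal protein genes. Of the 9 genes with a lower value, 3 are described here.

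*Apoe* had the smallest p, with a difference of 2.26, and 6 gray matter cells held 167 of its 187 UMIs there. The cathepsin genes *Ctss*, *Ctsd* and *Ctsz* had 0.46, 0.44 and 0.55. *Ctss* reached 7898 CPM in gray and 10472, 8922 and 8978 CPM in white matter Homeostatic2, and 6511 CPM in gray and 7198, 6226 and 6174 CPM in white matter Homeostatic1. *Ctsd*, the main lysosomal aspartic protease, reached 5842 CPM in gray and 7313, 6597 and 7301 CPM in white matter Homeostatic2, and 5696 to 5977 CPM in Homeostatic1 of all libraries. *Cd9*, a tetraspanin, had 0.59, and *Lyz2* 0.62. *C1qa* and *C1qb*, subunits of the first complement component, had 0.34 and 0.31, little above the median of all genes. *Cx3cr1* had 0.39 and *Selplg*, a selectin ligand, 0.48. *H2-DMa*, a chaperone of MHC class II loading, had 1.17 (SE 0.26, adjusted p = 0.00662 in edgeR), a call that DESeq2 did not make.

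Below 0 were *Ifi27l2a* at −1.36 (SE 0.25, adjusted p = 6.27e-05), *Prkca*, which encodes protein kinase C alpha, at −2.05 (SE 0.44, adjusted p = 0.00238) and the border macrophage marker *Pf4* at −5.12, where 1 gray matter cell held 5 of 6 UMIs and the call was lost without white matter library 2. *Prkca* stood at 146 CPM in gray and 21.1, 25.1 and 18.6 CPM in white matter Homeostatic2, and at 84.5 CPM in gray and 54.1 to 66.9 CPM in white matter Homeostatic1. It was thus higher than Homeostatic1 in gray and lower in white matter. Its gray matter sum was 18 UMIs from 15 cells. Of 33 interferon genes tested 2 were called as lower and 0 as higher, 11 passed at an unadjusted p as lower and 1 as higher, against 248 and 630 of all 11444 genes, and the median was −0.76. Here too a low gene could pass the filter through the gray matter library alone. Mitochondrially encoded genes made up 3 of the 41 calls. Their sum was 34430 CPM in gray and 25472 to 30069 CPM in white matter Homeostatic2, and 24087 and 24539 to 28140 CPM in Homeostatic1. The median gray matter cell had 3914 UMIs and 2.99% mitochondrial RNA in Homeostatic2, and 6006.5 UMIs and 2.19% in Homeostatic1. In white matter the medians were 5458 to 6891 UMIs and 2.21% to 2.84%, and 4865 to 7333 UMIs and 2.18% to 2.56%. The part of depth and mitochondrial RNA in the called genes was not tested. DESeq2 kept 11 of the 39 of these genes for which it gave an adjusted p, and 28 of 41 remained without white matter library 3.

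**Figure D5:**
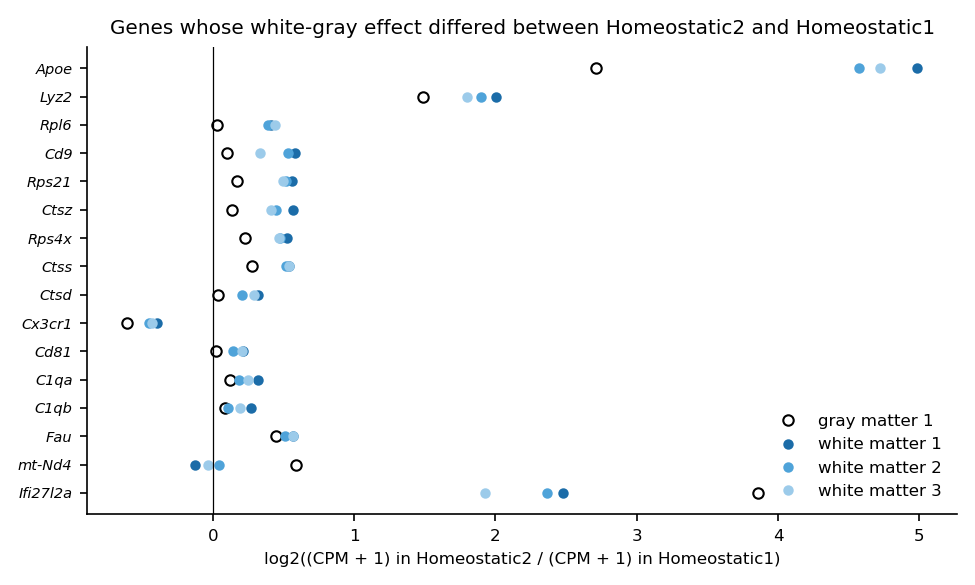
Log2 ratio of Homeostatic2 to Homeostatic1 in each library for the 16 listed genes with the smallest p among those whose white-gray difference differed between the clusters, without the scaling factors of the test. The open gray matter points lie left of all white matter points for *Apoe* (2.71 against 4.57 to 4.99) and right of them for *Ifi27l2a* (3.86 against 1.92 to 2.48).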

How the data were processed

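Single cells of the brains of 4 *Rag1*-/- libraries were measured on the 10× platform. The authors mapped reads with Cell Ranger to mm10, with another version for each batch, and filtered cells on genes, UMIs and mitochondrial RNA, with limits that differed between batches. They deposited raw UMI counts, which are whole numbers for each gene in each cell, and cluster names from a joint clustering of microglia. Clusters were drawn after integration with 4 libraries of another series, whose 8171 columns were not used. The sums covered 18886 genes. There were 9 genes with over 50 UMIs in batch 1 and 0 in batch 2. Counts came from the table of all cell types, which lacks 9 of the named microglia. No doublet caller was run here.

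UMIs were summed per library and cluster and tested in edgeR 4.0.16 (R 4.3.3) with filterByExpr, TMM, the two-sided quasi-likelihood F test and Benjamini-Hochberg adjustment over all genes. The spread of the lone gray matter library is taken from the white ones, and the difference between clusters was fitted with the library as a block on 2 residual degrees of freedom. SE is the log2 fold change over the square root of F. Summed depth ranged from 123583 to 11433436 UMIs for Homeostatic2. Cluster ratios used a pseudocount of 1 CPM, genes with a mean of at least 20 CPM and libraries with at least 20 cells of both clusters. Oligodendrocytes, by the deposited names, gave the level of free RNA for genes that they should lack. For *Apoe* they did not, since Homeostatic1 cells of the same libraries held less of it. Genes named are those of the markers and 31 lists, the 12 highest and 12 lowest ratios to Homeostatic1 (6 and 6 for other clusters) and the called genes. Called genes of no list, such as *Prkca*, were named after their values were seen. The members and lists were chosen with earlier results of these data known, and part of the lists may reflect them. The tests were also run on simulated counts. For the white-gray test on 10726 genes, 4 false calls were made among unchanged genes. For the difference between clusters, on 11444 genes, 2 were made, with 57% of 16-fold and 28% of 4-fold changes recovered. Both simulations used a dispersion near that of the white-gray fit (0.0218). The fit of the difference between clusters had 0.000988, so its simulation does not describe that test on the real counts. Alternatives were DESeq2 1.42.0, RLE size factors, no filter, a batch term, thinned cells, other folds and pseudocounts, and leaving out each library. Wild-type cells were not analysed here, and results for 2 genes are not reported here.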

Additional observations from a re-analysis of the deposited data

Results flagged for a closer look

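The test in edgeR of whether the white-gray difference of Homeostatic2 differed from that of Homeostatic1 called the 16 genes below, those of smallest p in the gene lists. DESeq2 made 8 of these 16 calls and lost *C1qa*, *C1qb*, *Cd81*, *Ctsz*, *Cx3cr1*, *Fau*, *Lyz2* and *Rps4x*. *Fau* was also lost with RLE size factors and without white matter library 3. Values are log2 differences of Homeostatic2 minus Homeostatic1, and the median over all 11444 genes tested was 0.23. *Apoe* had 2.26. Among lysosomal genes, *Ctss* had 0.46, *Ctsd* 0.44, *Ctsz* 0.55 and *Lyz2* 0.62. Among surface and complement genes, *Cd9* had 0.59, *Cx3cr1* 0.39, *Cd81* 0.38, *C1qa* 0.34 and *C1qb* 0.31. Among ribosomal protein genes, *Rpl6* had 0.59, *Rps21* 0.56, *Rps4x* 0.47 and *Fau*, whose product is a fusion with a ribosomal protein, 0.31. The interferon-induced *Ifi27l2a* had −1.36 and the mitochondrially encoded *mt-Nd4* −0.43. The gray matter side of each value rests on 1 library and 29 Homeostatic2 cells, and the clusters were drawn from the genes of the same cells.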

How the results depend on the processing

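The log2 fold change of the Homeostatic2 share was 4.10 with all cells of the library as size (adjusted p = 0.0564) and 4.96 in batch 1 alone, without a test. It was 4.28 to 4.67 with each white matter library left out, and the call was lost without library 3 (adjusted p = 0.0647). For Homeostatic2 in white against gray matter, 1 gene was called in the main test, 1 with RLE size factors, 48 without a filter on low counts, 5 in DESeq2, 46 with a batch term (1 residual degree of freedom) and 2 in thinned cells. Leaving out white matter libraries gave 2 to 155 genes, the most without library 1 and 17 without library 2. *Apoe* was called in each of these fits. The test of the difference between clusters called 41 genes, and 11 in DESeq2, 29 with RLE size factors and 29 to 38 with a white matter library left out.

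Genes past the fold, in either direction, numbered 159 for Homeostatic1, 181 for WAM, 1099 for Activated and 1865 for IRM. At 2-fold they numbered 46, 49, 263 and 783. Without a filter they numbered 309 for Homeostatic1, 302 for WAM and 6326 for IRM, and thinned cells gave 4679 for IRM. Leaving out single libraries gave 194 to 252 for Homeostatic1, 232 to 504 for WAM and 1248 to 1958 for Activated, the most without the gray matter library each time. No named ratio changed sign. With a pseudocount of 5 CPM, 10 of 24 to Homeostatic1, 3 of 12 each to WAM and Activated and 12 of 12 to IRM moved beyond the spread between libraries (any shift for IRM, with 1 library), and in thinned cells 6, 3, 2 and 12. No paired analysis was possible because the gray matter library shares its batch number with 1 white matter library alone. The alternative source of counts was not run, since the table of all cell types became the source. The 29 gray matter cells limit every comparison of the tissues, and the causes of the changes above were not tested.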

Other observations

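Against Homeostatic1, WAM and Activated of the same library, 5 genes were past 1.5-fold higher in Homeostatic2 in all 3 white matter libraries, *Arhgap15*, *Samd9l*, *Klf2*, *Naalad2* and *Gm26740*, and 0 were lower. They were chosen with their values in view, and IRM, with 37, 13 and 9 white matter cells, did not enter. The directions had unequal room, so nothing is drawn from the 0. Against Activated, the median log2 ratio of all 6094 genes in these libraries was 0.65, with 1847 past 1.5-fold higher and 111 lower. Of the lower genes, 77 were ribosomal protein genes, and 81 of the 82 in that list lay above Homeostatic1 in these libraries. *Klf2*, a transcription factor of quiescence in leukocytes and endothelium, stood at 36.6, 24.5 and 24.5 CPM in white matter Homeostatic2, at 3.89 to 11.4 CPM in Homeostatic1 and at 5.53 to 16.3 CPM in WAM, and at 8.09 CPM, 1 UMI, in gray matter. In IRM it stood at 50.9, 102 and 12.9 CPM, the higher level in 2 of the 3 libraries. *Arhgap15*, a GTPase-activating protein for Rac, stood at 116, 44.9 and 56.5 CPM in white matter Homeostatic2, at 5.68 to 22.7 CPM in Homeostatic1 and at 24.9 to 69.7 CPM in WAM, and at 138, 27.8 and 12.9 CPM in IRM. The antiviral gene *Samd9l* stood at 86.1, 25.7 and 40.9 CPM, 1.62 to 16.9 CPM and 14.9 to 49.3 CPM in the same order, and IRM exceeded all of these at 345, 149 and 168 CPM.

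Of 14 inflammatory cytokine and NF-kB genes, 2 were past 1.5-fold higher in Homeostatic2 than in Homeostatic1 in all 4 libraries and 0 lower, with a median log2 ratio of 0.29. The summed list was 1691 CPM in gray and 1644, 1464 and 1444 CPM in white matter Homeostatic2, against 1203 to 1267 CPM in Homeostatic1 and 3732 to 5383 CPM in WAM. The MHC class II list summed to 550 CPM in gray and 859, 866 and 917 CPM in white matter Homeostatic2, and to 534 to 603 CPM in Homeostatic1. *Cd74*, the invariant chain, stood at 72.8 CPM in gray and 148, 172 and 172 CPM in white matter Homeostatic2, and at 515, 597, 1290 and 936 CPM in WAM.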
